A study of Mus musculus with 4 samples.

Results

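The Maf transcription factors were described by the open chromatin assigned to 5 of their genes, the large factors Maf and Mafa and the small factors Maff, Mafg and Mafk, in 4 mouse muscles. The genes were chosen by family name, with earlier peak counts of these data known, among them the higher number of Maf peaks in quadriceps than in soleus. The number of peaks per muscle is therefore a description of chosen genes. Of the 17157 genes with a peak in any list these are 5, and their peaks make up 85 of 120839. Where peaks from separate lists overlapped they were merged, and 44 of the resulting 53883 regions belonged to the 5 genes.

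ATAC-seq marks accessible DNA by the adapters that Tn5 transposase can place there. Compared were a pair of mostly fast, glycolytic muscles, EDL (extensor digitorum longus) and Quad (quadriceps), the slow oxidative soleus (Sol), and the diaphragm (Dia), which breathing keeps in constant use. All came from wild type mice, of strain C57BL/6 by the labels and C57BL/6J by the study's methods, which describe males bought as young adults, with no further allele or agent named. Each muscle is represented by 1 library that its label calls pooled, so there is no replicate error, no p-value was computed, and each difference describes these libraries.

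The EDL list held 30136 peaks, the Quad list 40337, the Sol list 28784 and the Dia list 21582. Steps in the authors' scores, read as 1 tag (1 read start) each and scaled to 10 M (M, mega), gave between 78.1 M tags (Quad) and 105 M (Sol). Quad was thus the longest list at the lowest inferred depth. Peaks were 188 to 232 bp wide. Of 8 skeletal muscle marker genes, 7, 8, 8 and 5 held a peak in EDL, Quad, Sol and Dia, while the fibre myosin genes followed the fibre types in part. Myh7, the slow myosin, held 2 peaks in Sol and 0 elsewhere, but Myh4, the type IIb myosin, held 1 each in EDL, Quad and Sol, Myh2 2, 2, 1 and 1 in the order above, and Myh1 1 in Quad. Open chromatin of bulk muscle comes from every cell type in it, and fewer nuclei of a type cannot be told apart from less open chromatin per nucleus. Fibroblast marker genes held 19, 27, 12 and 6 peaks leukocyte and macrophage marker genes 5, 7, 2 and 1, and smooth muscle marker genes 8, 12, 5 and 1 in the same order. Satellite cell marker genes held 7, 14, 8 and 4 and endothelial ones 37, 40, 41 and 22, and the part of these cells in the results on Maf genes was not tested.

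Maf proteins are basic leucine zipper factors that bind as dimers to the Maf recognition element (MARE). Each of its mirrored arms holds the letters TGCTGA, called the MARE arm here. Large Mafs carry an activation domain, and in skeletal muscle they are known to favour type IIb fibres, the fastest fibre type of the mouse. Small Mafs lack that domain and act mostly as partners of cap'n'collar factors such as Nfe2, Nfe2l2 and the Bach repressors.

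The highest-ranked peaks of Maf, Mafk, Mafg and Maff are printed first, with the best-ranked distal Maf peaks that differ among lists, because the comparison of muscles rests on them. Each is the + strand of mm10 from the RefSeq sequence of GRCm38, 5′ to 3′, without exonic bases. Capitals mark a MARE arm (TGCTGA), an AP-1 site (TGACTCA), an E-box (CAGCTG) or a TEAD site (GGAATG). They were searched on both strands together with NFAT (TGGAAA), nuclear receptor (AAGGTCA) and MEF2 motifs. The MARE arm and AP-1 share the letters TGA and can overlap in a full MARE. The first is the peak just upstream of Maf, found in all 4 lists (EDL peak, chr8:115707839-115708047).
Maf upstream: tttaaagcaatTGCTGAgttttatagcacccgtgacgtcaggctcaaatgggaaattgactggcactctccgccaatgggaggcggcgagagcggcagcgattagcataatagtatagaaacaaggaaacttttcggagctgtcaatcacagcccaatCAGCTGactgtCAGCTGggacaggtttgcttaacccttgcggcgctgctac
The second is the highest-ranked Maf peak of the regions open in EDL and Quad alone (EDL peak, chr8:115475966-115476174), and it holds none of the motifs.
Maf distal: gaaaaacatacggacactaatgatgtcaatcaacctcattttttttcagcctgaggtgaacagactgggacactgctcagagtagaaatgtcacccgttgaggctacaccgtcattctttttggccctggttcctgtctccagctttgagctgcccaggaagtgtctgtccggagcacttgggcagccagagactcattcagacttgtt
The best-ranked Maf peak outside both fast muscles is shown beside it (Dia peak, chr8:115159827-115160059), and it too holds none of the motifs.
Maf Dia: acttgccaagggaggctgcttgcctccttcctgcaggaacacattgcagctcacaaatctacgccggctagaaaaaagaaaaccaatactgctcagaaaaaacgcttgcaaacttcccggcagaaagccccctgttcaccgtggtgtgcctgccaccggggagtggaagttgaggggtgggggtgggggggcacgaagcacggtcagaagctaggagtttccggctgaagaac
The following one is the peak in intron 1 of Mafk (EDL peak, chr5:139796983-139797191), which held the single AP-1 site found in the 44 regions.
Mafk intron: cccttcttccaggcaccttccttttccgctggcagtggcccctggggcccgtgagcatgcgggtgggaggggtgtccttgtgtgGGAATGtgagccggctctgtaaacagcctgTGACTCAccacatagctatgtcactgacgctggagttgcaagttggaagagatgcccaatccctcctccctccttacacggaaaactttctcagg
The last sequences are the exon-free parts of the best promoter peaks of Mafg (Quad, chr11:120633601-120633714) and Maff (Sol, chr15:79348295-79348401), without any of the motifs.
Mafg promoter: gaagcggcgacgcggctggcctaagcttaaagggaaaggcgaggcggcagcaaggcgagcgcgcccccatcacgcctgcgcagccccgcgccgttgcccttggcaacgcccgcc
Maff promoter: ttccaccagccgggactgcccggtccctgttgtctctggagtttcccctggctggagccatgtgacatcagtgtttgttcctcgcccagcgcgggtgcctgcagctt

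Maf held by far the most peaks of the 5 genes, with 21 in Quad, 14 in EDL, 9 in Sol and 4 in Dia. Mafa held 6 peaks in Quad, 5 in EDL and 3 each in Sol and Dia. With these lists and this gene assignment, Maf and Mafa each had more peaks in either fast muscle than in Sol or Dia. Within 100 kb of the TSS, Maf held 3 peaks in EDL against 4 in Sol, and with the nearest protein-coding start in GENCODE, Mafa held 2 in both. Among the small Maf genes, Maff held 3 peaks in Quad, 2 in Sol and 1 each in EDL and Dia, Mafg 2 in Quad and 1 elsewhere, and Mafk 2 in every muscle. The sum over the 5 genes was 34 for Quad, 23 for EDL, 17 for Sol and 11 for Dia.

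**Figure D1:**
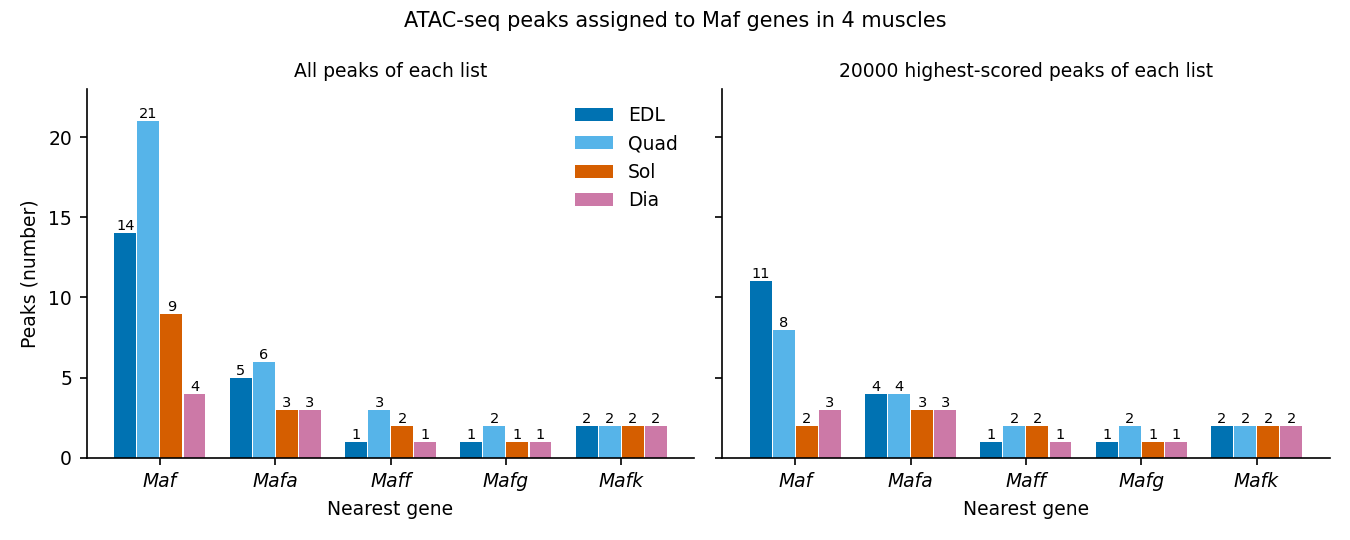
Number of ATAC-seq peaks (vertical axis) whose nearest gene is each Maf gene (horizontal axis), by muscle, for whole lists (left) and for equal lists of the 20000 best-scored peaks (right). Maf falls from 21 peaks in Quad to 4 in Dia, while Mafk has 2 in every muscle.

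These counts were read against all genes, since list length differs. EDL exceeded Sol at 2 of the 5 genes, Maf and Mafa, and at 24.9% of all genes. EDL exceeded Dia at the same 2 genes, against 36.8% of all genes. Quad exceeded Sol at 4 of the 5 genes, all but Mafk, against 45.7% of all genes, and it exceeded Dia at these 4 genes, against 54.9%. A lower count in a fast muscle occurred once, at Maff in EDL against Sol. The share of all genes with a lower count in the fast muscle ran from 7.44% (Quad against Dia) to 21.01% (EDL against Sol). Lower counts were thus the smaller part over all genes as well.

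When lists were cut to their 20000 best-scored peaks, which removes the difference in length, EDL held 11 Maf peaks, Quad 8, Sol 2 and Dia 3. Mafa then held 4 each in EDL and Quad and 3 each in Sol and Dia. EDL then exceeded Sol at Maf and Mafa (19.5% of all genes) and exceeded Dia at the same 2 (21.8%). Quad exceeded Sol at 3 genes, Maf, Mafa and Mafg (20.6%), and exceeded Dia at 4, Maff in addition (22.4%). Maf and Mafa thus kept their order between fast and other muscles at equal list length, Mafa with 4 peaks against 3. Maf changed order between EDL and Quad. Within 100 kb Maf did not keep the order of EDL and Sol. In the upper 50% of each list Mafa held 4 peaks in Quad but 3 each in EDL, Sol and Dia. By its total of 48 peaks Maf ranked 42nd of all 17157 genes, and by its difference between Quad and Sol it ranked 3rd, ties included, the measure for which it had been noticed.

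Among 433 genes with at least 10 peaks in a list, none had the same 4 counts as Maf. The 5 nearest by the sum of absolute differences in peaks over the 4 muscles were Dab2ip (sum 5, with 13, 17, 9 and 4 peaks), Nav2 (6), Wwox (6), Arid1b (7) and Cops8 (7). The same 4 counts as Mafa were found at 7 other genes, those of Maff at 75, those of Mafg at 627 and those of Mafk at 337, of 17157 genes.

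Maf encodes c-Maf, a large Maf, and lies on the minus strand of chromosome 8 (115682942 to 115707794 in GENCODE M21). Its peaks were spread over a wide interval and none overlapped the gene body in any list. The 30 merged regions lay from -149 kb to 557 kb of the start site used by the authors. They fell into 4 upstream and 26 downstream regions, 11 of them beyond 200 kb, and the intragenic ones among them lay in intron 8 of Wwox, the next gene. Of the EDL peaks 13 of 14 were downstream, of the Quad peaks 19 of 21, of the Sol peaks 6 of 9 and of the Dia peaks 2 of 4.

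**Figure D2:**
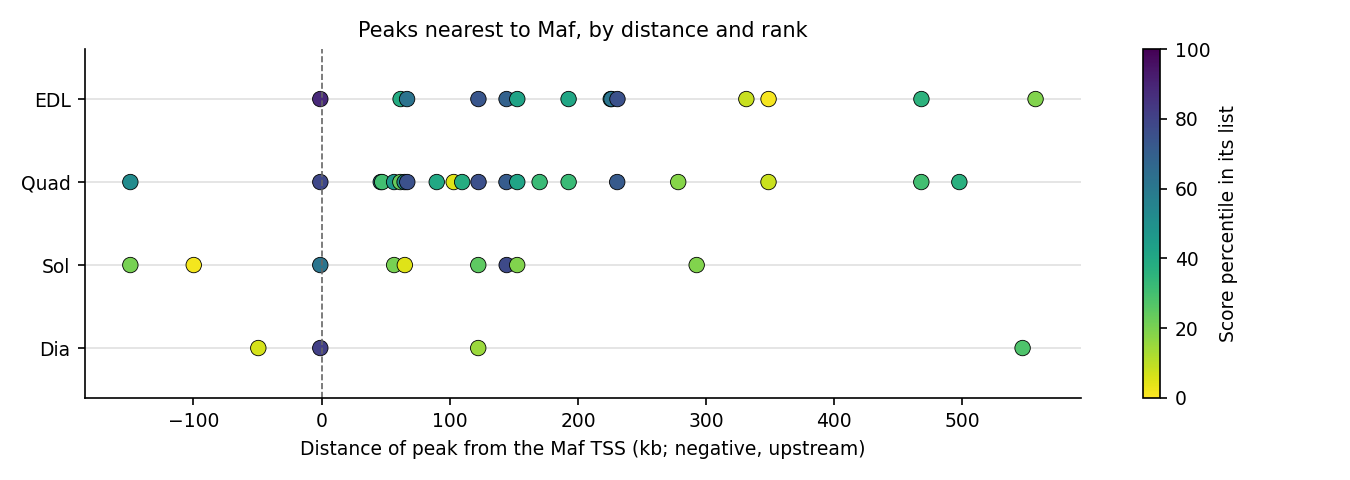
Each point is a peak nearest to Maf, placed by its distance from the Maf TSS in kb (horizontal axis; negative is upstream) in the list of each muscle (rows), coloured by its score percentile within that list. EDL and Quad carry points along the downstream side up to 557 kb and 498 kb, whereas Dia has 4 points in all.

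Of the 30 Maf regions, 2 held a peak in all 4 lists (6.67%, Wilson interval 1.85% to 21.3%), beside 16.0% of all regions outside promoters. The first of these 2 Maf regions, printed above, lay just upstream of the gene, at -1017 bp (Quad), -1045 bp (Dia), -1049 bp (EDL) and -1054 bp (Sol) from the authors' start site. It was the highest-ranked Maf peak in EDL (percentile 88.6 of the list's scores), Quad (78.4) and Dia (81.2), and it stood at 61.0 in Sol. The authors' annotation called it intergenic, since their start site lies inside the gene span of GENCODE. From the GENCODE start the same peaks lay at -117, -145, -149 and -154 bp, in promoter range. Its score, in tags per 10 M if scaled as above, was 14.6 in EDL (exact 95% Poisson interval 12.4 to 17.1), 12.8 in Dia (10.7 to 15.2), 10.9 in Quad (8.69 to 13.5) and 8.41 in Sol (6.75 to 10.4). These intervals cover counting error only.

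The second shared region lay at 122 kb downstream, and its rank differed among muscles. It stood at percentile 73.4 in EDL and 75.8 in Quad, but at 24.8 in Sol and 15.0 in Dia. Its score was 10.2 in Quad (8.12 to 12.8) and 10.1 in EDL (8.26 to 12.2), against 5.16 in Sol (3.88 to 6.73) and 4.94 in Dia (3.65 to 6.52). The counting intervals of the fast muscles did not overlap those of Sol and Dia. The 4 peaks did not cover the same window, however. The Quad peak ended at 115584577 and the Dia peak began at 115584590, so they were joined only through the EDL and Sol peaks. The Sol peak began at 115584568 and shared only an edge with the Quad peak. These scores thus compare adjoining DNA as well as muscles, at peak widths that differ between lists.

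A further pair of regions was open in the 3 hindlimb muscles without Dia. One, at 144 kb, was the highest-ranked Maf peak of Sol, at percentile 77.5, against 68.97 in EDL and 71.2 in Quad. The other, at 153 kb, stood at 42.1 in EDL, 41.8 in Quad and 19.01 in Sol. By rank, the region at 144 kb thus had Sol at the top. Its scores were 11.1 in Sol (9.16 to 13.3), 9.35 in Quad (7.33 to 11.8) and 9.33 in EDL (7.57 to 11.4), with overlapping intervals. The Sol peak ended at 115562599 and the Quad peak began at 115562574, so they shared only an edge. These scores thus do not set Sol apart from the fast muscles.

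EDL and Quad alone shared 5 of the 30 Maf regions (16.7%, Wilson interval 7.34% to 33.6%), beside 9.57% of all regions outside promoters. These 5 Maf regions lay at 66.7 kb (percentile 61.8 in EDL and 75.2 in Quad), at 193 kb (40.9 and 32.4), at 231 kb (75.4 and 71.9), at 349 kb (1.53 and 7.89) and at 468 kb in the Wwox intron (35.7 and 30.2). The region at 231 kb is the distal one printed above, as its EDL peak. That peak ended at 115476174 and the Quad peak began at 115476168, so they shared only an edge. The EDL peak held 109 tags (89.5 to 131) and the Quad peak 74 (58.1 to 92.9). The lowest-scored peaks of the Sol and Dia lists held 32 and 36 tags. No peak was called there in Sol or Dia, which says only that none passed those lists' thresholds.

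Quad and Sol shared 3 Maf regions without the others, at -149 kb, 56.6 kb and 64.8 kb. Their percentiles were 52.1, 46.5 and 52.1 in Quad, and 20.5, 20.5 and 5.06 in Sol. The remaining 18 of the 30 Maf regions held a peak of 1 list (60%, Wilson interval 42.3% to 75.4%), beside 50.5% of all regions outside promoters. Of these, 9 were of Quad (30% of the 30, beside 26.9%) and 5 of EDL (16.7%, beside 7.96%). A further 2 were of Sol (6.67%, beside 10.4%) and 2 of Dia (6.67%, beside 5.27%). The Sol peaks stood at percentiles 1.85 and 19.01 and the Dia peaks at 6.36 and 28.1, all in the lower part of their lists. The best of the EDL ones, at 226 kb, reached 61.0, and the best of the Quad ones, at 46.1 kb, reached 62.1. At 61.4 kb in Quad and 61.6 kb in EDL, a peak of each list was counted apart although the gap was 5 bp.

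Over all its peaks, Maf had a median percentile of 42.1 in EDL (95% order-statistic interval 18.8 to 73.4, 14 peaks) and 40.0 in Quad (30.2 to 62.1, 21 peaks). It was 21.5 in Dia (6.36 to 81.2, its whole range, which for 4 peaks falls short of 95% coverage) and 20.5 in Sol (5.06 to 61.0, 9 peaks). The median over a whole list is 50 by construction. All 4 intervals overlapped. Seen by region, 19 of the 30 were open in EDL, Quad or both and not in Sol or Dia (63.3%, Wilson interval 45.5% to 78.1%), beside 44.4% of all regions outside promoters. Since Maf was chosen with such counts known, nothing is read from that gap. The other way, 4 of the 30 were open in Sol, Dia or both and in neither fast muscle (13.3%, 5.31% to 29.7%), beside 17.0%.

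The nearest gene is an assignment by distance. Within 1 Mb of the Maf start lay 37 peaks of Quad, 30 of EDL, 18 of Sol and 13 of Dia. Those nearest to Wwox numbered 10, 9, 6 and 3 in that order, and those nearest to Dynlrb2, which encodes a dynein light chain, 6, 7, 3 and 6. Wwox thus showed the same order as Maf, which is also the order of the list lengths. Dynlrb2 had as many peaks in Dia as in Quad.

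Mafa encodes the large Maf best known from pancreatic beta cells, and lies on the minus strand of chromosome 15 (75745490 to 75748228). Every list had a peak at its promoter, at -519 bp in EDL, -515 bp in Quad and Sol, and -539 bp in Dia. Its percentile was 97.9 in Quad, 95.4 in Dia, 94.98 in Sol and 93.4 in EDL, close to the top of each list. The scores were 25.5 (22.1 to 29.3), 20.6 (17.9 to 23.7), 19.4 (16.8 to 22.3) and 17.9 (15.4 to 20.7) in that order. Quad and EDL, the fast muscles, stood at the ends of this order, with intervals that did not overlap.

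Upstream of Mafa, within the introns of Zc3h3, a pair of regions was also open in all 4 muscles. The one at -10.1 kb, in intron 9 of Zc3h3, reached percentile 94.1 in EDL, 89.9 in Sol, 88.5 in Quad and 64.2 in Dia. The one at -34.5 kb, in intron 5, reached 85.03 in EDL, 83.6 in Quad and 83.1 in Sol, against 56.03 in Dia. Both ranked lowest in Dia, where the former had a score of 9.27 (7.47 to 11.4), against 14.5 in Quad (11.9 to 17.4), 15.3 in Sol (13.02 to 17.9) and 18.7 in EDL (16.1 to 21.5). Sol ranked close to the fast muscles at both. At -10.1 kb the Quad peak began at 75758080, while the EDL, Sol and Dia peaks ended at 75758114, 75758100 and 75758113. The Quad peak thus shared only an edge with the others, and its score and rank there describe adjoining DNA.

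The peaks that gave EDL and Quad their higher Mafa counts ranked lower. A region 20.2 kb downstream stood at percentile 30.1 in EDL and 49.4 in Quad, and one at -33.3 kb in intron 5 of Zc3h3 at 43.2 and 61.1. Quad held a further peak at -27.6 kb in intron 9 of Zc3h3 (41.8). None of these 3 regions was called in Sol or Dia. They were 50% of the 6 Mafa regions (Wilson interval 18.8% to 81.2%). Beside this, 37.5% of all regions, and 44.4% of those outside promoters, were open in EDL, Quad or both and not in Sol or Dia. When each peak was given instead to the nearest start of a protein-coding gene in GENCODE, Mafa kept 2, 3, 2 and 2 peaks in EDL, Quad, Sol and Dia. EDL then no longer exceeded Sol or Dia. The same held by the authors' assignment in the upper 50% of each list, with 3 peaks each in EDL, Sol and Dia.

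**Figure D3:**
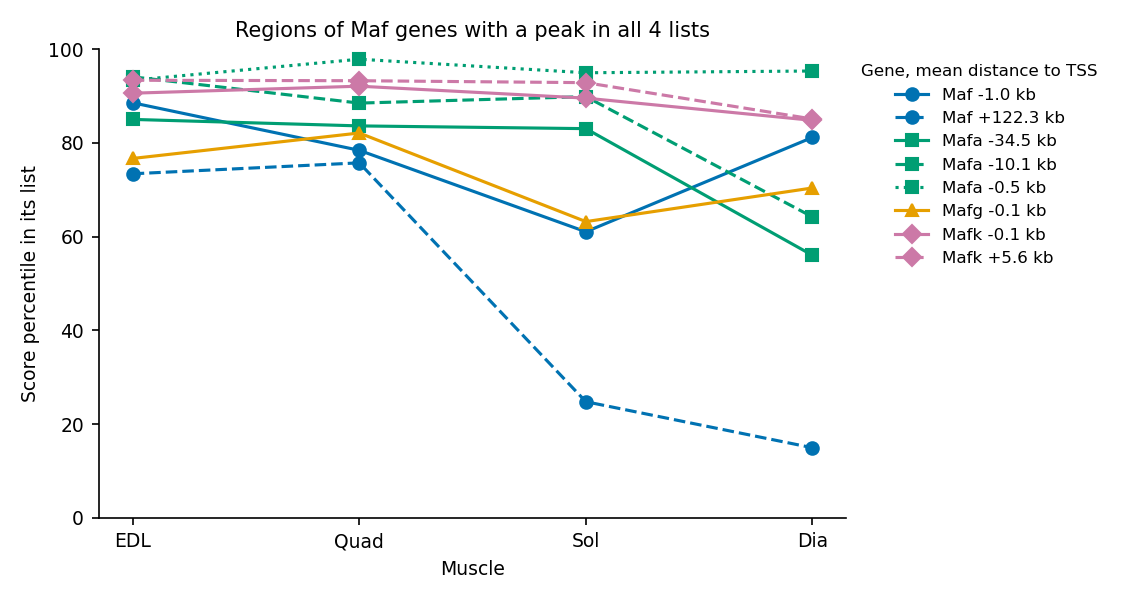
Score percentile within its own list (vertical axis) of the 8 regions of Maf genes that held a peak in all 4 lists, by muscle, with each line a region named by gene and mean distance to the TSS. The Maf region at 122 kb drops from 75.8 in Quad to 15.0 in Dia, while the Mafa promoter stays between 93.4 and 97.9. The Quad and Dia peaks at 122 kb do not overlap each other and were joined through the EDL and Sol peaks.

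Mafk, a small Maf on the plus strand of chromosome 5 (139791513 to 139802653), had the same pair of regions in every muscle. Its promoter stood at percentile 92.1 in Quad, 90.6 in EDL, 89.6 in Sol and 84.8 in Dia. The region in intron 1, printed above, stood at 93.3, 93.4, 92.9 and 85.1 in that order. It lay at 5551 bp from the authors' start site in EDL, and at -427 bp from another Mafk start in GENCODE. By that annotation it also was a promoter peak. The scores of the intron peak were 17.9 in EDL (15.4 to 20.7) and in Quad (15.1 to 21.2), 17.4 in Sol (14.96 to 20.1) and 14.1 in Dia (11.9 to 16.6), with overlapping intervals.

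Mafg, a small Maf on the minus strand of chromosome 11 (120625117 to 120633600), had a promoter peak in every list, at -38 bp in EDL and -73 bp in Quad, Sol and Dia. It stood at percentile 82.1 in Quad, 76.7 in EDL, 70.4 in Dia and 63.2 in Sol. Quad alone held a second peak, at 896 bp in intron 1 (74.6), 736 bp from the nearest peak of another list. The promoter ranks were higher in EDL and Quad than in Sol and Dia. The scores, 11.9 in Quad (9.61 to 14.6), 10.8 in EDL (8.87 to 12.97), 10.3 in Dia (8.38 to 12.47) and 8.7 in Sol (7.003 to 10.7), had overlapping intervals in all muscles.

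Maff, a small Maf on the plus strand of chromosome 15 (79346621 to 79359076), was the 1 gene without a region common to all 4 lists. Its start site was open in EDL at -15 bp (percentile 56.1) and in Quad at 7 bp (61.1). Sol held its promoter peak at another start of the gene, at -4 bp from that start (74.7), 674 bp from the Quad peak. Dia held no Maff promoter peak. It held a peak in intron 1 (64.2), shared with Quad (49.4). Quad and Sol shared a region in the last exon, at percentiles 55.7 and 49.0. Maff thus had 1 to 3 peaks per muscle, at 4 positions, none of them called in every list.

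**Figure D4:**
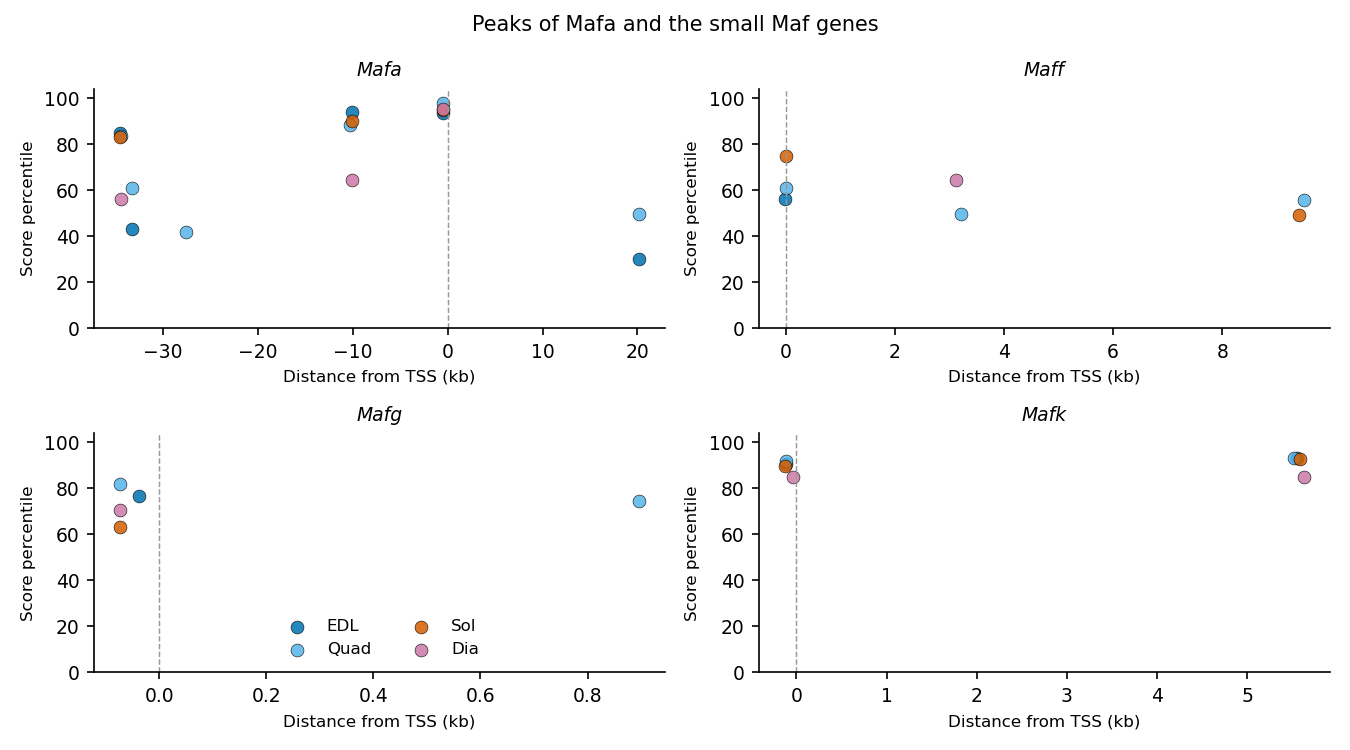
Each point is a peak of Mafa, Maff, Mafg or Mafk, placed by its distance to the TSS in kb (horizontal axis) and its score percentile within its list (vertical axis), coloured by muscle. The Dia points of Mafa at -34.5 kb and -10.1 kb lie at 56.03 and 64.2, below those of the other muscles.

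Of all 44 regions, 8 held a peak in all 4 lists, against 26.9% of all regions. They were 3 of Mafa, 2 of Maf, 2 of Mafk and 1 of Mafg. Outside promoters the count was 5 of 39, against 16.0% of all such regions. A further 8 regions were open in EDL and Quad only, 5 of Maf, 2 of Mafa and 1 of Maff, against 8.05% of all regions. Outside promoters it was 7 of 39, against 9.57%. By pairs, EDL and Quad shared 18 regions, which was 78.3% of the EDL ones and 52.9% of the Quad ones, beside 80.8% and 60.4% over all genes. EDL and Sol shared 10, or 43.5% of the EDL ones and 58.8% of the Sol ones, beside 68.3% and 71.5% over all genes. Quad and Sol shared 14, or 41.2% of the Quad ones and 82.4% of the Sol ones, beside 53.96% and 75.6%. Of the 11 Dia regions, 8 were shared with EDL, 9 with Quad and 8 with Sol (72.7%, 81.8% and 72.7%), beside 77.3%, 80.7% and 77.2% over all genes.

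Promoters held 4 of 23 peaks in EDL (17.4%, Wilson interval 6.98% to 37.1%), 4 of 34 in Quad, 4 of 17 in Sol and 3 of 11 in Dia. The lists as a whole held 30.7%, 25.5%, 31.9% and 41.3% at promoters. With GENCODE starts the shares of the 5 genes were 45.5% in Dia, 35.3% in Sol, 26.1% in EDL and 17.6% in Quad. The list shares were not recomputed with GENCODE starts, so these values cannot be set against them. At 20000 peaks per list the Quad share was 22.2%, and in the upper 50% of the EDL list it was 30.8%. Intergenic peaks of the 5 genes numbered 13, 20, 9 and 3, of which 12, 19, 9 and 3 were at Maf. Over the 5 genes the median percentile was 64.2 in Dia, 61.0 in EDL and in Sol, and 52.1 in Quad. Outside promoters, ranked among peaks outside promoters, it was 80.3 in Dia, 61.1 in Quad, 55.1 in EDL and 33.4 in Sol, so the order of the muscles depends on this choice.

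The sequences of the 44 regions were compared with all regions in 200-bp windows at the peak centre. The MARE arm was found in 12 of them (27.3%, Wilson interval 16.3% to 41.8%), beside 18.0% of all regions. It was present in both Maf regions shared by all lists, in both regions shared by the hindlimb muscles, and in the Mafa regions at -34.5 kb and -33.3 kb. It was also in Maf regions of Quad alone (46.1 and 47.2 kb), of EDL alone (331 and 557 kb) and of both (349 kb). The last was the Maff region in the last exon. The interval for the 44 regions included the share over all regions, so no difference was detectable with this number.

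Outside promoters the MARE arm was in 12 of 39 regions (30.8%, 18.6% to 46.4%), beside 20.2%. The E-box, which myogenic factors bind, was in 7 of 39 (17.9%, 8.98% to 32.7%), beside 22.4%, and the MEF2 motif in 2 of 39, beside 4.55%. NFAT letters were in 1 of 39 (2.56%, 0.454% to 13.2%), beside 20.6% of all regions outside promoters. In windows of 400 bp they were in 10 of 39 (25.6%, 14.6% to 41.1%), beside 36.1%, and the interval then included the share over all regions. A match is a description of letters, and none of these shares speaks of binding.

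**Figure D5:**
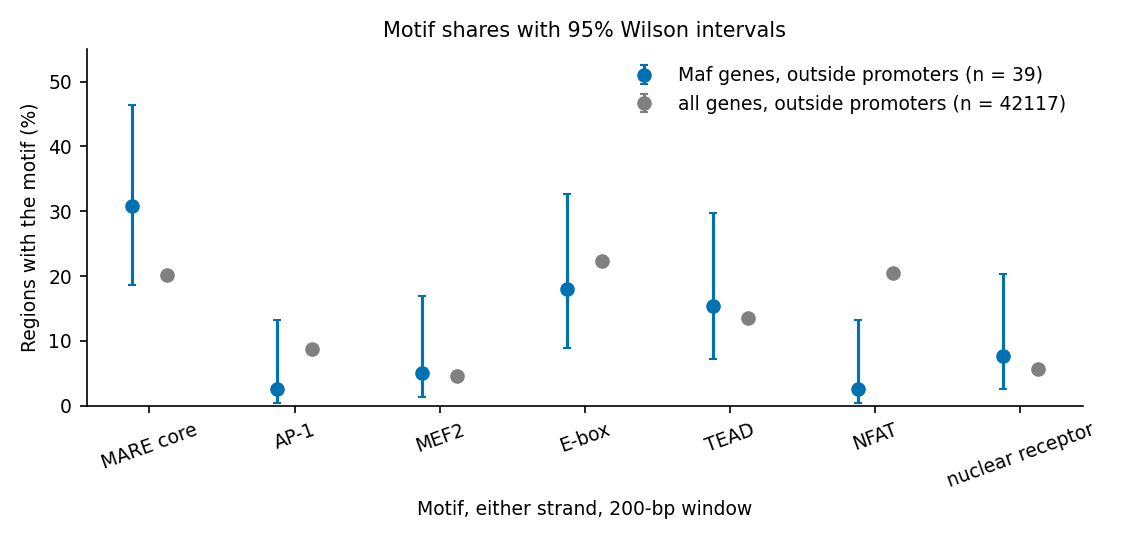
Percentage of regions outside promoters (vertical axis) that hold each motif (horizontal axis) on either strand of a 200-bp window, for the 39 regions of Maf genes and for all 42117 regions, with 95% Wilson intervals as bars. The axis label MARE core stands for the MARE arm TGCTGA. The NFAT share of the Maf genes, 2.56%, and its bar lie below the 20.6% of all regions, and the other bars include the share over all regions.

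The median GC content of the 30 Maf regions was 51.3%, beside 51% over all regions outside promoters, and none of the 44 regions was more than 50% repeat sequence. The promoter regions of the 5 genes had a median of 68% GC and 20 CpG dinucleotides per window, beside 64% and 16 over all promoters.

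Relatives and partners of the 5 genes were read from a list chosen with earlier results known. Nrl, the large Maf of photoreceptors, held 1 peak, in Sol at percentile 3.33.

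Among partners of small Mafs, Nfe2l2, the oxidative stress factor also called Nrf2, held 6, 11, 7 and 5 peaks (EDL, Quad, Sol, Dia), with its promoter between percentile 96.7 in Dia and 99.3 in Quad. Nfe2l1 held 3, 3, 3 and 2 peaks, Bach1 4, 5, 3 and 1, Bach2 7, 7, 6 and 5, and Nfe2 0, 2, 1 and 1. Nfe2l3 held none in any list. Between EDL and Sol, Bach1 and Bach2 each held 1 peak more in EDL, Nfe2l2 and Nfe2 each 1 more in Sol, and Nfe2l1 the same number.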

How the data were processed

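Peaks were taken from 4 deposited lists, 1 per muscle, each from a library labelled as pooled. By the study's methods, the authors aligned ATAC-seq reads to mm10 with Bowtie2 at default settings, kept 1 tag per start position, called fixed-width peaks with HOMER and annotated the nearest TSS. Their promoter class spans 1 kb before to 100 bp after a TSS. Treatment of the Tn5 offset and of mitochondrial reads was not given in the sources used here. The deposited peak score is the authors' signal per peak, a tag count scaled per library.

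Peaks were counted by the authors' nearest gene. Percentiles are the percentage of a list's peaks with a lower score, with ties split evenly. Tags were inferred from the score steps (tolerance 0.0051). Peaks overlapping by at least 1 bp were merged, also where peaks were joined only through a peak of another list. Shares carry 95% Wilson intervals, tags exact Poisson intervals and medians order-statistic intervals, all covering counting error only. Coordinates are 1-based. Gene spans came from GENCODE M21 and sequences from RefSeq GRCm38.p6, which is the mm10 assembly. No peak on an assembled chromosome ran past its end. Motifs were searched on both strands in 200-bp windows at the best-ranked peak. Python 3.11.15, pandas 2.3.3, numpy 2.4.6, scipy 1.17.1 and statsmodels 0.14.6 were used, and merging and ranking were tested on simulated data.

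The genes named are the 5 members, their relatives and partners, fibre myosins, the 5 genes nearest to Maf in peak counts, and neighbours within 1 Mb. Members, lists and motifs were chosen with earlier results of these data known. Alternatives were equal list length, the upper 50% of each list, distance to the TSS, gene and promoter annotation, overlap rule and window. A relative, a motif and a sequence are not reported here.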

Additional observations from a re-analysis of the deposited data

How the results depend on the processing

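No paired analysis was possible because each muscle had 1 library here. At 20000 peaks per list, the peaks of the 5 genes fell to 18 in Quad and 10 in Sol, those of Maf to 8 in Quad and 2 in Sol, the merged regions to 27 and those open in EDL and Quad only to 4. With the upper 50% of each list, the 5 genes held 18 peaks in Quad, 13 in EDL and 9 in Sol, Maf 8, 6 and 2 with 1 in Dia, and 21 regions remained in count, 4 of them open in EDL and Quad only. Within 100 kb of the TSS, the 5 genes held 12 peaks in EDL and 21 in Quad, and 25 regions, 4 of them open in EDL and Quad only, and the median percentile in EDL was 80.9. Maf then held 8 peaks in Quad, 4 in Sol, 3 in EDL and 2 in Dia, so that EDL minus Sol turned from 5 to -1. In windows of 400 bp, TEAD was in 31.8% and NFAT in 25% of the 44 regions. With 50% reciprocal overlap, sharing within 500 bp or the nearest protein-coding gene in GENCODE, summed counts stayed within 1.5 times. Regions open in all 4 lists went from 8 to 6 with 50% reciprocal overlap. Apart from the EDL median above, promoter shares and median percentiles stayed within their wide intervals, but some moved by over 1.5 times. The Dia promoter share went from 27.3% to 45.5% with GENCODE starts, an alternative chosen after seeing the data, and the Sol median from 61.0 to 33.4 outside promoters. Without replicates, the spread between animals is unknown, and a peak absent from a list may lie below that library's threshold.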
